A study of Mus musculus with 6 samples.

Results

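The unfolded protein response and the integrated stress response were followed through 43 genes in tissue of Balb/c mice, of which 42 were among the 13823 genes of the expression table. The genes were chosen by name, with earlier results of these data known. They comprised 15 genes whose transcription is driven by the factor ATF4, 14 chaperones and folding enzymes of the endoplasmic reticulum (ER), 7 stress sensors and regulators, and 6 genes of ER-associated degradation. Derl3, a seventh degradation gene, was not among the listed genes. All 42 passed the expression filter of at least 1 FPKM (fragments per kilobase, relative to all mapped fragments of a library) in at least 3 libraries, as did 12257 genes in all.

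Unfolded proteins in the ER are sensed by the membrane proteins PERK, IRE1 and ATF6. IRE1 splices the mRNA of XBP1, and spliced XBP1 together with ATF6 raises chaperones and degradation factors. PERK, and in the cytosol the amino acid sensor GCN2, phosphorylate the translation factor eIF2α, which lowers protein synthesis in general but lets ATF4 be translated, and ATF4 then raises amino acid transport and synthesis genes and the factors CHOP and TRIB3. Chaperones and ATF4 targets can therefore move separately, because GCN2 feeds into ATF4 without the ER. Much of this control lies in splicing, phosphorylation and translation, which gene-level FPKM does not show.

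One group of 3 mice received vehicle (DMSO) and the other group of 3 received isotoosendanin (ITSN), a limonoid of plant origin, by stomach tube at 1 mg/kg/day. The series title names TGFβR1 as the protein on which ITSN acts and triple-negative breast cancer as the setting. The labels call the tissue breast in every library without stating whether this was tumour, and each library came from a separate mouse. Of 13 epithelial and mammary markers 9 were listed, with a summed level of 354 to 528 FPKM in the vehicle mice and 526 to 555 FPKM in the ITSN mice, whereas Krt5 and the milk genes Csn2, Wap and Lalba were not listed. Only 3 of 10 adipocyte markers were listed, and Adipoq and Plin1 were not among them. The labels state male mice, yet Xist stood between 20.1 and 29.3 FPKM in the 6 libraries and 0 of 4 Y-linked genes looked for were listed.

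The library of vehicle 1 stood apart from the other 5. Its score on the first principal component was -43.2, against -4.63 to 20.1 elsewhere. Mitochondrially encoded transcripts took 32.3% of its summed FPKM, 22.4% and 17.5% in vehicle 2 and 3, and 13.5% to 15.6% in the ITSN mice. The 10 macrophage markers summed to 210.4 FPKM in vehicle 1, against 505 and 629 in the other vehicle libraries and 550.4 to 589 in the ITSN mice. The 10 fibroblast markers summed to 54.6 FPKM there, against 174 and 231 in the vehicle mice and 141 to 224 in the ITSN mice, and the 8 listed neutrophil markers of 10 to 237 FPKM, against 131 and 80.6 in the vehicle mice and 77.2 to 125 in the ITSN mice, with Ly6g and Elane not listed. The 9 listed epithelial and mammary markers also summed lowest there, to 354 FPKM, against 478 and 528 in the other vehicle libraries and 526 to 555 in the ITSN mice. In whole tissue, fewer cells of a type and less RNA per cell cannot be told apart. The adjusted calls, the contrast and the genes that vehicle 1 moves most are therefore given with and without it. Counts at an unadjusted p and counts of groups without overlap are given with it only.

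The promoters of the ATF4 targets and of the chaperones carried different short motifs, and a few of these stretches are shown because the contrast between both groups runs through the results. The RefSeq windows (GRCm38.p6) ran from 250 bases before to 50 bases after each gene start and were searched on both strands, with 37 of the 43 genes having one. The C/EBP-ATF response element, the composite site bound by ATF4 with a C/EBP partner, was searched as TGATGNAA and occurred in 3.97% of all 32851 windows. It was present in 5 of 14 ATF4 targets (Asns, Chac1, Nupr1, Slc7a11 and Trib3) and in 0 of 12 chaperones, and Herpud1 of the degradation group also had it. In the following lines, written 5′ to 3′ on the strand that carries the motif, capitals mark the match.
Asns, chr6:7693214-7693243, minus strand: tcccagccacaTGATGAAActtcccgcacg
Chac1, chr2:119351038-119351067, minus strand: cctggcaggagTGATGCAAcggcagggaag
Trib3, chr2:152344028-152344057, plus strand: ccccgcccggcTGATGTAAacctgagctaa
Nupr1, chr7:126625562-126625591, plus strand: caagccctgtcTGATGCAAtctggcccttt
Herpud1, chr8:94386306-94386335, minus strand: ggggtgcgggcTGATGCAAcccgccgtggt
Counted from each gene start as 0, the first base of the match lay at -23 in Asns, -193 in Chac1, -110 in Nupr1 and -112 in Herpud1, and at 14 in Trib3. The RefSeq start of Trib3 differs from the gene start in the expression table, from which the same match lies upstream. The starts of Asns and Nupr1 differ too. From the starts in the expression table, 7693254 for Asns and 126630861 for Nupr1, both matches lie downstream, inside the gene.

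The ER stress response element, through which ATF6 acts with the CCAAT-binding factor NF-Y, was searched as CCAAT and CCACG with 9 bases between them and occurred in 39 windows, or 0.119% of all. It was present in 7 of 12 chaperones (Calr, Canx, Creld2, Dnajc3, Hsp90b1, Hspa5 and Pdia6), in 0 of 14 ATF4 targets, and in Syvn1 and Derl3. Capitals mark the CCAAT part, the spacer and the CCACG part.
Hspa5, chr2:34772015-34772053, plus strand: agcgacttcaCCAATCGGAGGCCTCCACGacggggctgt
Hsp90b1, chr10:86705523-86705561, plus strand: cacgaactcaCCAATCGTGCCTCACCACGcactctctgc
Calr, chr8:84847065-84847103, plus strand: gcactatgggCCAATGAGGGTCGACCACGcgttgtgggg
Pdia6, chr12:17266481-17266519, plus strand: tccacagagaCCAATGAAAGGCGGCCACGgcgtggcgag
Syvn1, chr19:6046522-6046560, plus strand: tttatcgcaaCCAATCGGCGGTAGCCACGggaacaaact
A shorter relative of this element, ATTGG and CCACG with 1 base between them, occurred in 12 windows (0.0365%), of which Herpud1 was the only one among the stress response genes.
Herpud1, chr8:94386367-94386397, plus strand: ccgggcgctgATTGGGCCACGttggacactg
The letters ATTGG are CCAAT read on the other strand. The XBP1 element TGACGTGG, which holds TGACG, the core of the cyclic AMP response element, and the complement of CCACG, was in 0.676% of windows and in no stress response gene. The core TGACG alone was in 20.8% of windows, in 5 of 14 ATF4 targets and in 5 of 12 chaperones. The printed match of Hspa5 lies downstream of the gene start in the expression table, inside the gene. A match is a description of the letters, not evidence of a bound site. The table had no entry for Atf6, Ppp1r15b, Manf, Hyou1, Derl1 and Slc7a5.

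The chaperones were the abundant part of the response. As means of the 6 libraries, their median level was 77.6 FPKM, with 6 of 14 at or above 100 FPKM, a level reached by 187 of all listed genes. They ranged from 7.91 FPKM for Sdf2l1 to 234 FPKM for Hsp90b1. The ATF4 targets had a median of 15.2 FPKM, from 2.80 FPKM for Slc7a11 to 46.5 FPKM for Cebpb. The sensors and regulators had a median of 12.7 FPKM, with Atf4 itself highest at 69.9 FPKM, and the degradation genes a median of 9.38 FPKM. The median over all listed genes was 4.92 FPKM.

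No stress response gene passed the threshold when ITSN was compared with vehicle across all 6 libraries, but many lay higher under ITSN in every library. At an adjusted p below 0.05 in limma, 0 of 42 were called, against 7 of 12257 genes (0.0571%). At an unadjusted p below 0.05 in limma, 14 stood higher and 2 lower, together 38.1% of the 42 against 20.9% of all tested genes. In 15 genes each ITSN library exceeded each vehicle library (35.7%, against 21.8% of all tested genes), and in 4 genes each ITSN library lay below each vehicle library (9.52%, against 7.37%). The fitted change was positive in 33 genes and negative in 9, or 78.6% positive against 64.0% of all genes, and after trimmed-mean scaling 66.7% against 48.1%. The median log2 change was 0.20 for the 42 genes and 0.09 for all tested genes, which trimmed-mean scaling moved to 0.09 and -0.01. Without vehicle 1 the fitted change was positive in 31 of the 42, against 6676 of all 12257 tested genes. In that setting 4 of the 42 were called, with Slc7a5, Derl1 and Chac1 higher and Pdia3 lower under ITSN, against 5.49% of all tested genes.

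**Figure D1:**
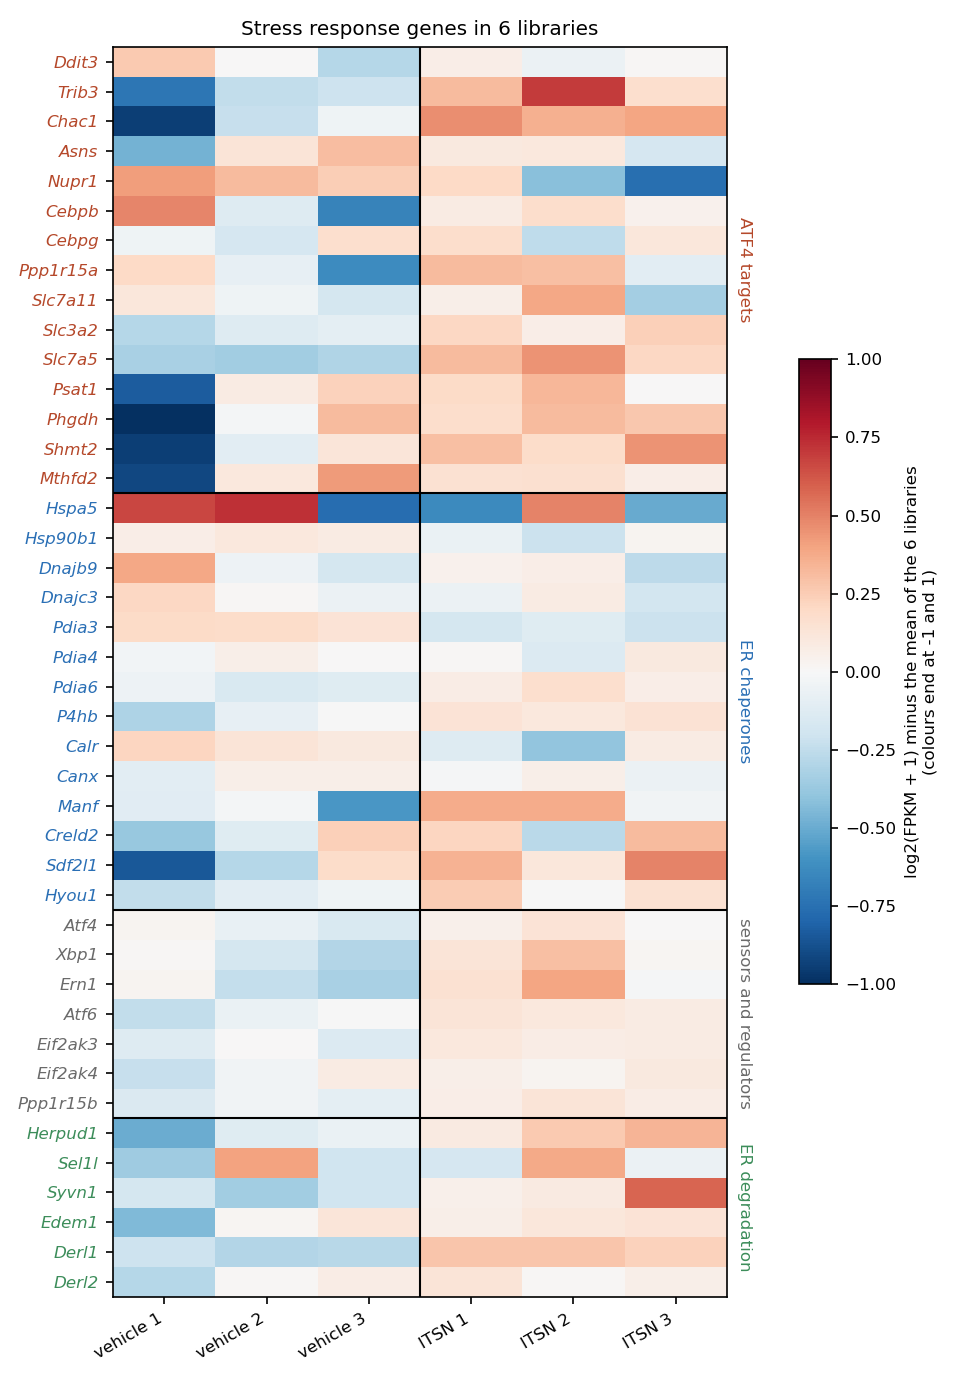
The level of each of the 42 genes in each library is plotted as log2(FPKM + 1) minus its mean over the 6 libraries, with genes grouped by role and colours ending at -1 and 1. Slc7a5 and Derl1 separate the groups cleanly, the serine and folate enzymes are lowest in vehicle 1, and Hspa5 has high and low libraries in both groups.

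The mean level of the ATF4 targets was higher under ITSN, and that of the chaperones, whose genes went both ways, was nearly the same. The mean log2(FPKM + 1) of the 15 ATF4 targets was 3.35, 3.63 and 3.65 in vehicle libraries 1, 2 and 3 and 3.90, 3.88 and 3.73 in ITSN libraries 1, 2 and 3. That of the 14 chaperones was 5.73, 5.79 and 5.69 in the vehicle mice and 5.78, 5.78 and 5.76 in the ITSN mice. The ATF4 targets thus averaged 0.29 higher under ITSN, or 0.19 without vehicle 1, and the chaperones 0.04 higher with or without it. Every ITSN library lay above every vehicle library for the ATF4 targets, while for the chaperones the vehicle 2 library was the highest of all. The summed level of 10 skeletal muscle markers, all listed, was 9.66, 25.7 and 27.6 FPKM in vehicle libraries 1, 2 and 3 and 55.6, 98.6 and 22.0 FPKM in ITSN libraries 1, 2 and 3, so it too was lowest in vehicle 1 and highest in ITSN 1 and 2. Its part in the ATF4 target levels was not tested. The median over all listed genes also lay higher in every ITSN library than in every vehicle library. It was 4.20, 4.74 and 4.91 FPKM in the vehicle mice and 5.12, 5.04 and 5.18 FPKM in the ITSN mice. A separation of the groups was thus not particular to the ATF4 targets.

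The difference between both means, ATF4 targets minus chaperones, was -2.38, -2.15 and -2.04 in the vehicle mice and -1.88, -1.90 and -2.03 in the ITSN mice. The group values were -2.19 ± 0.17 in the vehicle mice and -1.94 ± 0.08 in the ITSN mice (SD, n = 3 each), 0.25 apart. Vehicle 3 and ITSN 3 lay next to each other, so that the groups touched without overlapping. The gap was 0.16 without vehicle 1, the lowest library. It was 0.13 after the trend with GC content was removed from each library's deviations from the gene means. With both steps it was 0.04, less than the spread between the vehicle libraries. The median GC content was 53.4% in the ATF4 targets, 48.2% in the chaperones and 48.6% in all tested genes. Across all genes, the tenth with the lowest GC (median 38.5%) had a median log2 change of -0.09 and the tenth with the highest (median 59.1%) one of 0.40.

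**Figure D2:**
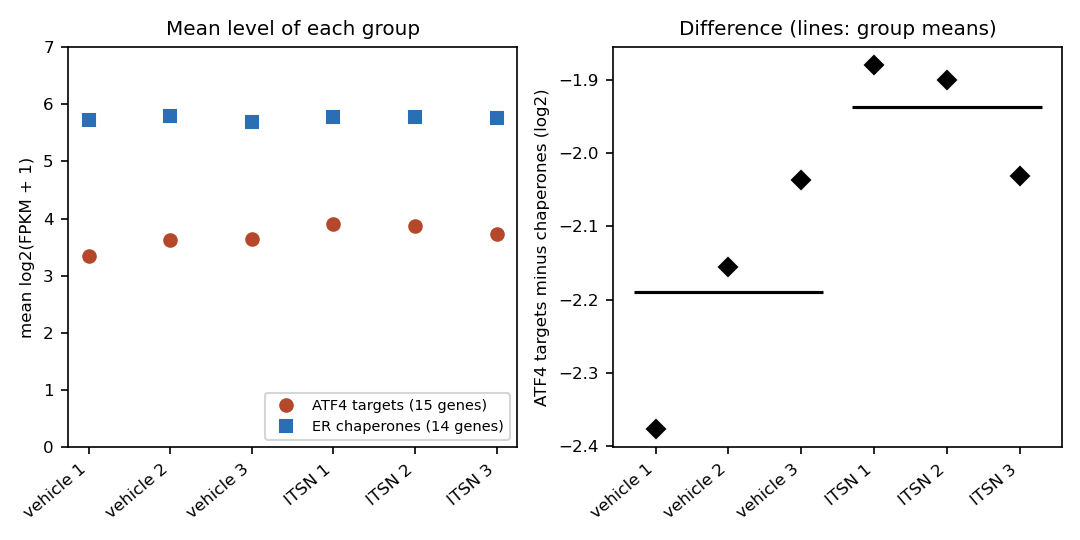
The left plot gives the mean log2(FPKM + 1) of 15 ATF4 targets and of 14 ER chaperones in each library, and the right plot their difference, with lines at the group means. The chaperone means stay between 5.69 and 5.79 in all 6 libraries, whereas the ATF4 target mean runs from 3.35 in vehicle 1 to 3.90 in ITSN 1.

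Among the ATF4 targets, 14 of 15 (93.3%) had a positive fitted change and 1 a negative one, against 64.0% positive of all tested genes, with a median log2 change of 0.34. After trimmed-mean scaling 10 of 15 (66.7%) were positive, against 48.1% of all genes, and the median was 0.23. Without vehicle 1 the median was 0.15, with 12 of 15 positive, against 6676 of all 12257 tested genes. After removal of the GC trend the median was also 0.15. The adjusted threshold was passed by 0 of the ATF4 targets in limma, with 4 higher and 1 lower at an unadjusted p below 0.05 (33.3%, against 20.9% of all tested genes). Slc7a5, Slc3a2, Trib3 and Chac1 were the 4 on the higher side, and Nupr1 was the one on the lower side. Asns and the serine and folate enzymes were set apart mainly by vehicle 1.

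Slc7a5 (ENSMUSG00000040010.10, chr8:121881150-121907694, mm10, minus strand) encodes LAT1, the carrier that brings leucine and other large neutral amino acids into cells. It stood at 14.4, 14.2 and 14.7 FPKM in vehicle libraries 1, 2 and 3 and at 23.0, 25.4 and 21.3 FPKM in ITSN libraries 1, 2 and 3. The vehicle libraries lay within 1 FPKM of each other, and the lowest ITSN library was well above all of them. The means were 14.4 ± 0.250 and 23.3 ± 2.07 FPKM (SD, n = 3 each), a ratio of 1.61, with a log2 change of 0.65 ± 0.09 SE and an adjusted p of 0.068 in limma. Without vehicle 1 the change was the same, 0.65, with an adjusted p of 0.034. With the GC trend removed it was 0.35, with an adjusted p of 0.31.

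Slc3a2, the glycoprotein chain that carries LAT1 to the cell surface, differed less. It stood at 17.5, 19.6 and 20.0 FPKM in the vehicle mice and at 25.0, 22.6 and 25.5 FPKM in the ITSN mice, without overlap. The means were 19.0 ± 1.37 and 24.4 ± 1.56 FPKM (SD, n = 3 each), and the log2 change was 0.34 ± 0.10 SE with an adjusted p of 0.12 in limma. With the GC trend removed that change was 0.14. Slc7a11, which pairs with the same chain to exchange cystine for glutamate, stood between 2.32 and 3.07 FPKM in the vehicle mice and between 1.97 and 3.90 FPKM in the ITSN mice. Its groups overlapped fully, with a log2 change of 0.07 ± 0.19 SE.

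Trib3 (chr2:152337422-152344032, minus strand) encodes a pseudokinase that binds ATF4 and AKT and acts in feedback on the stress response. It stood at 2.76, 4.25 and 4.38 FPKM in the vehicle mice and at 6.75, 9.09 and 5.98 FPKM in the ITSN mice. No ITSN library reached down to the vehicle range. The means of 3.80 ± 0.898 and 7.28 ± 1.62 FPKM (SD, n = 3 each) had a ratio of 1.92, with a log2 change of 0.79 ± 0.20 SE and an adjusted p of 0.10 in limma. Without vehicle 1, the lowest library, the change was 0.62 with an adjusted p of 0.073. With the GC trend removed it was 0.43 with an adjusted p of 0.40, and with both steps 0.33 with an adjusted p of 0.375.

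Chac1 (chr2:119351229-119354381, plus strand) encodes an enzyme that breaks down glutathione. It stood at 1.29, 2.74 and 3.26 FPKM in the vehicle mice and at 5.06, 4.61 and 4.76 FPKM in the ITSN mice. The ITSN libraries lay close together, while vehicle 1 was far below the other vehicle libraries. The means were 2.43 ± 1.02 and 4.81 ± 0.229 FPKM (SD, n = 3 each), a ratio of 1.98, with a log2 change of 0.81 ± 0.23 SE and an adjusted p of 0.12 in limma. The change was 0.54 without vehicle 1, with an adjusted p of 0.044, and 0.28 with the GC trend removed as well, with an adjusted p of 0.141. Both Trib3 and Chac1 are rich in GC, at 58.2% and 57.4% of their longest transcript, and Slc7a5 holds 56.3%.

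Nupr1, a small nuclear protein raised by many stresses, was the one ATF4 target with a negative fitted change. It was at 19.8, 18.3 and 17.4 FPKM in the vehicle mice and at 16.8, 10.6 and 8.23 FPKM in the ITSN mice. ITSN 1 came within 1 FPKM of the lowest vehicle library, while the other ITSN libraries lay far below. The means were 18.5 ± 1.20 and 11.9 ± 4.45 FPKM (SD, n = 3 each), with a log2 change of -0.65 ± 0.23 SE and an adjusted p of 0.18 in limma.

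**Figure D3:**
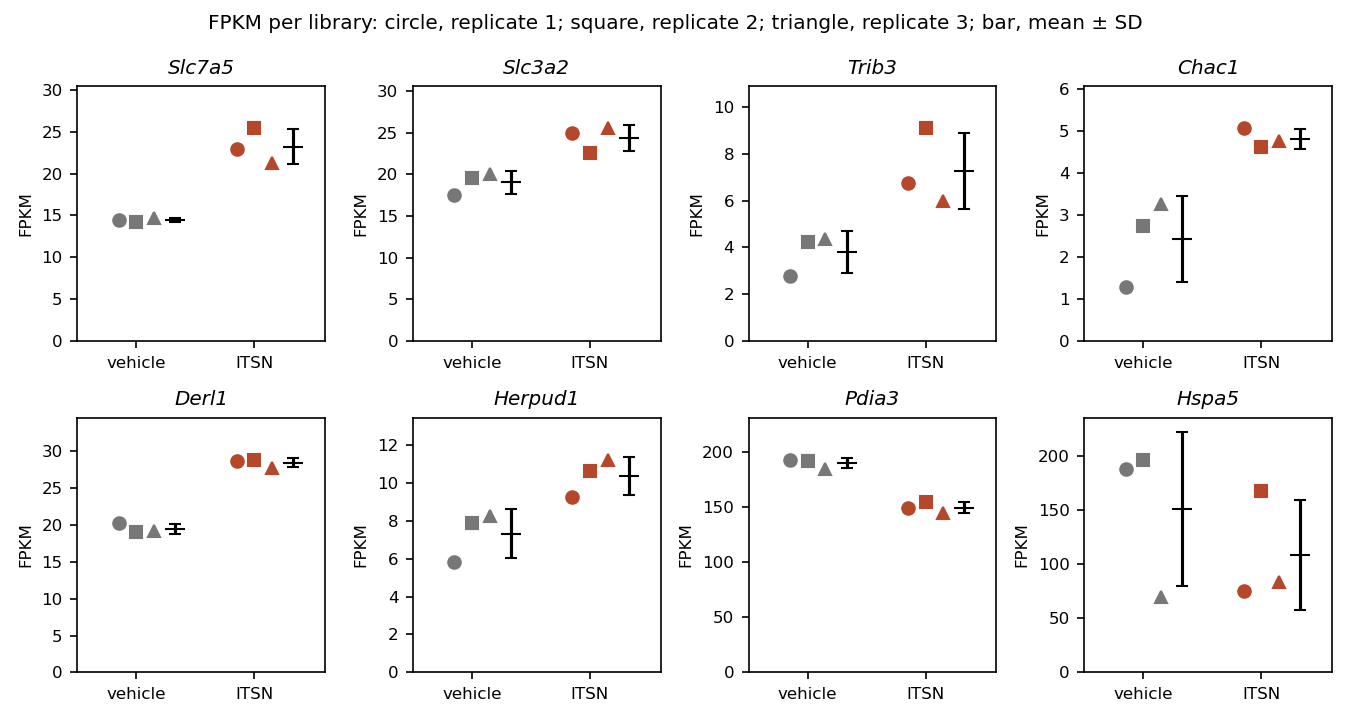
FPKM is plotted for each vehicle and ITSN library of 8 genes, with the replicate shown by the symbol and the mean ± SD beside the points. Slc7a5, Slc3a2, Trib3, Chac1, Derl1 and Herpud1 are higher in each ITSN library, Pdia3 is lower in each, and Hspa5 has high and low libraries in both groups.

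The enzymes of serine synthesis and of mitochondrial folate metabolism were distinguished by vehicle 1 more than by treatment. Phgdh, the first enzyme of serine synthesis, stood at 8.52, 18.7 and 23.9 FPKM in the vehicle mice and at 21.6, 23.9 and 23.1 FPKM in the ITSN mice. Its log2 change was 0.51 ± 0.33 SE with vehicle 1 and 0.10 without it. Psat1, the next enzyme, stood at 7.96, 15.9 and 17.7 FPKM in the vehicle mice and at 17.2, 19.1 and 15.0 FPKM in the ITSN mice, with a change of 0.35 ± 0.28 SE that was 0.02 without vehicle 1. In both genes vehicle 2 and 3 lay near the ITSN range and vehicle 1 far below it.

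Shmt2, which splits serine to feed mitochondrial folate, stood at 12.3, 22.7 and 26.8 FPKM in the vehicle mice and at 30.4, 28.0 and 33.8 FPKM in the ITSN mice. It was the one gene of this group without overlap, and its log2 change of 0.62 ± 0.27 SE (adjusted p 0.25 in limma) became 0.30 without vehicle 1. That change was 0.28 with the GC trend removed and 0.04 with both steps. Mthfd2, the next mitochondrial folate enzyme, stood at 5.15, 11.4 and 14.5 FPKM in the vehicle mice and at 11.8, 11.9 and 11.1 FPKM in the ITSN mice. Its change was 0.25 ± 0.32 SE with vehicle 1 and -0.14 without it, so the direction hung on that library. Asns, which makes asparagine, behaved likewise, with 15.5, 24.0 and 27.4 FPKM in the vehicle mice and 23.5, 23.7 and 19.4 FPKM in the ITSN mice, and changes of 0.02 with vehicle 1 and -0.21 without it.

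In all, vehicle 1 lay at least 1.5-fold from the mean of the other vehicle libraries, on the FPKM + 1 scale, in 7 of 15 ATF4 targets (46.7%), namely Asns, Cebpb, Chac1, Mthfd2, Phgdh, Psat1 and Shmt2. The same held for 1 of 14 chaperones, Sdf2l1, and for 17.7% of all tested genes. Vehicle 1 was also the library with the highest mitochondrial share, the highest neutrophil sum and the lowest macrophage, fibroblast and epithelial sums. Their part in these levels was not tested.

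The remaining ATF4 targets overlapped between groups. Ddit3, which encodes CHOP, the factor linked to death of stressed cells, stood at 8.10, 6.61 and 5.24 FPKM in the vehicle mice and at 6.93, 6.29 and 6.67 FPKM in the ITSN mice. All 3 ITSN values fell inside the vehicle range, with a log2 change of 0.01 ± 0.15 SE. Cebpb, a partner of ATF4 on its composite site, stood at 63.9, 41.2 and 28.1 FPKM in the vehicle mice, a 2.28-fold range, and at 47.9, 51.2 and 46.5 FPKM in the ITSN mice, with a change of 0.20 ± 0.27 SE. That change was 0.50 without vehicle 1, -0.08 without vehicle 3 and -0.39 once the GC trend was removed. Cebpg, another partner, had a change of 0.03 ± 0.15 SE, which turned to -0.09 after trimmed-mean scaling. Ppp1r15a, which encodes GADD34, the inducible subunit that dephosphorylates eIF2α, stood at 5.64, 4.45 and 2.73 FPKM in the vehicle mice and at 6.21, 6.13 and 4.37 FPKM in the ITSN mice, with overlap and a change of 0.34 ± 0.23 SE that was 0.53 without vehicle 1 and 0.11 without vehicle 3.

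The chaperones and folding enzymes were split in direction. Of 14 genes 6 had a positive fitted change and 8 a negative one, and the median was -0.02. At an unadjusted p below 0.05 in limma, 5 were higher and 1 was lower, and 0 passed after adjustment. The unadjusted count was 42.9% of the list, against 20.9% of all tested genes. The groups did not overlap in 6 genes, with 3 higher and 3 lower under ITSN, or 21.4% each way against 21.8% higher and 7.37% lower of all tested genes. Pdia3, Calr and Hsp90b1 were those lower, and P4hb, Pdia6 and Hyou1 those higher.

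Pdia3 (ENSMUSG00000027248.13, chr2:121413775-121438687, plus strand) encodes ERp57, the disulfide isomerase that works with calreticulin and calnexin on glycoproteins and in the loading of MHC class I. It stood at 193, 192 and 185 FPKM in the vehicle mice and at 149, 155 and 145 FPKM in the ITSN mice. Both groups were tight, and the gap between them was wider than the range within either. The means were 189.9 ± 3.89 and 149.6 ± 5.26 FPKM (SD, n = 3 each), a ratio of 0.788, with a log2 change of -0.34 ± 0.09 SE and an adjusted p of 0.11 in limma. The change was -0.33 without vehicle 1, with an adjusted p of 0.049, and -0.37 with the GC trend removed, with an adjusted p of 0.21. Catsper2 overlaps its exons on the opposite strand, and whether counting used strand is not given.

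Calr, the lectin chaperone calreticulin and a partner of ERp57, stood at 179, 169 and 165 FPKM in the vehicle mice and at 141, 117 and 163 FPKM in the ITSN mice. The ITSN libraries varied widely, and ITSN 3 was only slightly under vehicle 3. Its log2 change was -0.30 ± 0.14 SE with an adjusted p of 0.28 in limma. Canx, its membrane-bound relative calnexin, stood at 149, 167 and 167 FPKM in the vehicle mice and at 159, 167 and 154 FPKM in the ITSN mice, with a change of -0.01 ± 0.10 SE. Calreticulin and calnexin share substrates, but the values of Canx overlapped fully.

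Hsp90b1, the abundant chaperone GRP94, stood at 244, 251 and 246 FPKM in the vehicle mice and at 222, 201 and 237 FPKM in the ITSN mice. Each ITSN library was lower than each vehicle library, by little, with a log2 change of -0.17 ± 0.10 SE and an adjusted p of 0.40 in limma. Its exons overlap genes on both strands.

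Hspa5 (ENSMUSG00000026864.13, chr2:34771970-34777547, plus strand) encodes BiP, the ER chaperone that holds the stress sensors inactive and is the classic marker of the unfolded protein response. It stood at 188, 196 and 69.3 FPKM in the vehicle mice and at 75.4, 167 and 83.0 FPKM in the ITSN mice. Vehicle 1, vehicle 2 and ITSN 2 were high, and vehicle 3, ITSN 1 and ITSN 3 were low, so the split crossed the groups. The means were 151 ± 70.8 and 109 ± 51.0 FPKM (SD, n = 3 each), with a log2 change of -0.42 ± 0.47 SE and an adjusted p of 0.66 in limma. The highest library exceeded the lowest by 2.82-fold, and the size of the change hung on single libraries. It was -0.20, -0.17 and -0.91 without vehicle 1, 2 and 3, and -0.21, -0.78 and -0.28 without ITSN 1, 2 and 3.

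The other abundant chaperones did not follow Hspa5. Divided by Hsp90b1 in the same library, Hspa5 was 0.770, 0.778 and 0.282 in the vehicle mice and 0.340, 0.833 and 0.350 in the ITSN mice. The same ratio stayed between 0.313 and 0.353 for Pdia4 and between 0.582 and 0.734 for Calr. The promoter stretches of Hspa5, Hsp90b1 and Calr printed above all carry the ER stress response element, while their levels over the 6 libraries took different courses. Without Hspa5 among the chaperones, the contrast with the ATF4 targets was 0.22.

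Folding enzymes on the higher side included P4hb and Pdia6. P4hb, the founding protein disulfide isomerase, stood at 104, 122 and 129 FPKM in the vehicle mice and at 142, 139 and 143 FPKM in the ITSN mice, with a log2 change of 0.26 ± 0.11 SE (adjusted p 0.24 in limma). That change was 0.04 with the GC trend removed and 0.03 with vehicle 1 left out as well. Pdia6, a disulfide isomerase that also binds the sensors IRE1 and PERK, stood at 74.5, 69.4 and 70.9 FPKM in the vehicle mice and at 81.3, 86.8 and 80.8 FPKM in the ITSN mice, with a change of 0.21 ± 0.08 SE (adjusted p 0.22). With the GC trend removed the change of Pdia6 was 0.14. Neither P4hb nor Pdia6 overlapped between groups, in contrast to Pdia4, a further member of the family. Pdia4 stood between 76.3 and 80.8 FPKM in the vehicle mice and between 70.6 and 83.2 FPKM in the ITSN mice.

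Among the BiP cofactors, Hyou1, the nucleotide exchange factor GRP170, stood at 10.9, 12.1 and 12.7 FPKM in the vehicle mice and at 15.8, 13.1 and 14.7 FPKM in the ITSN mice, with a log2 change of 0.26 ± 0.11 SE and no overlap. That change was 0.09 with the GC trend removed. Sdf2l1, which works with ER DnaJ proteins, stood at 3.73, 5.99 and 8.68 FPKM in the vehicle mice and at 9.82, 8.23 and 11.0 FPKM in the ITSN mice. Its change of 0.64 ± 0.26 SE became 0.37 without vehicle 1 and 0.32 with the GC trend removed. The DnaJ cofactors Dnajb9 and Dnajc3 each had a log2 change of -0.11 with overlap, and for Dnajb9 the change was 0.06 without vehicle 1.

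Of the secreted stress proteins, Manf, a growth factor retained in the ER with BiP, stood at 17.3, 18.5 and 12.2 FPKM in the vehicle mice and at 24.5, 24.6 and 18.3 FPKM in the ITSN mice. Only ITSN 3 fell within the vehicle range, and the log2 change was 0.48 ± 0.19 SE with an adjusted p of 0.21 in limma, and 0.30 without vehicle 3. Rbm15b overlaps its exons on the same strand, so its counts may hold reads of that gene. Creld2, another secreted ER stress protein, stood between 11.7 and 18.4 FPKM in the vehicle mice and between 12.7 and 19.5 FPKM in the ITSN mice, with a change of 0.17 ± 0.21 SE that was 0.03 without vehicle 1 and -0.08 with the GC trend removed. Plasma cells carry much ER, and 3 of 13 plasma and B cell markers were listed, with sums of 16.3 to 20.9 FPKM in the vehicle mice and 21.1 to 22.0 FPKM in the ITSN mice, while Ms4a1, Cd79a and Mzb1 were not listed. Their part in the chaperone levels was not tested.

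**Figure D4:**
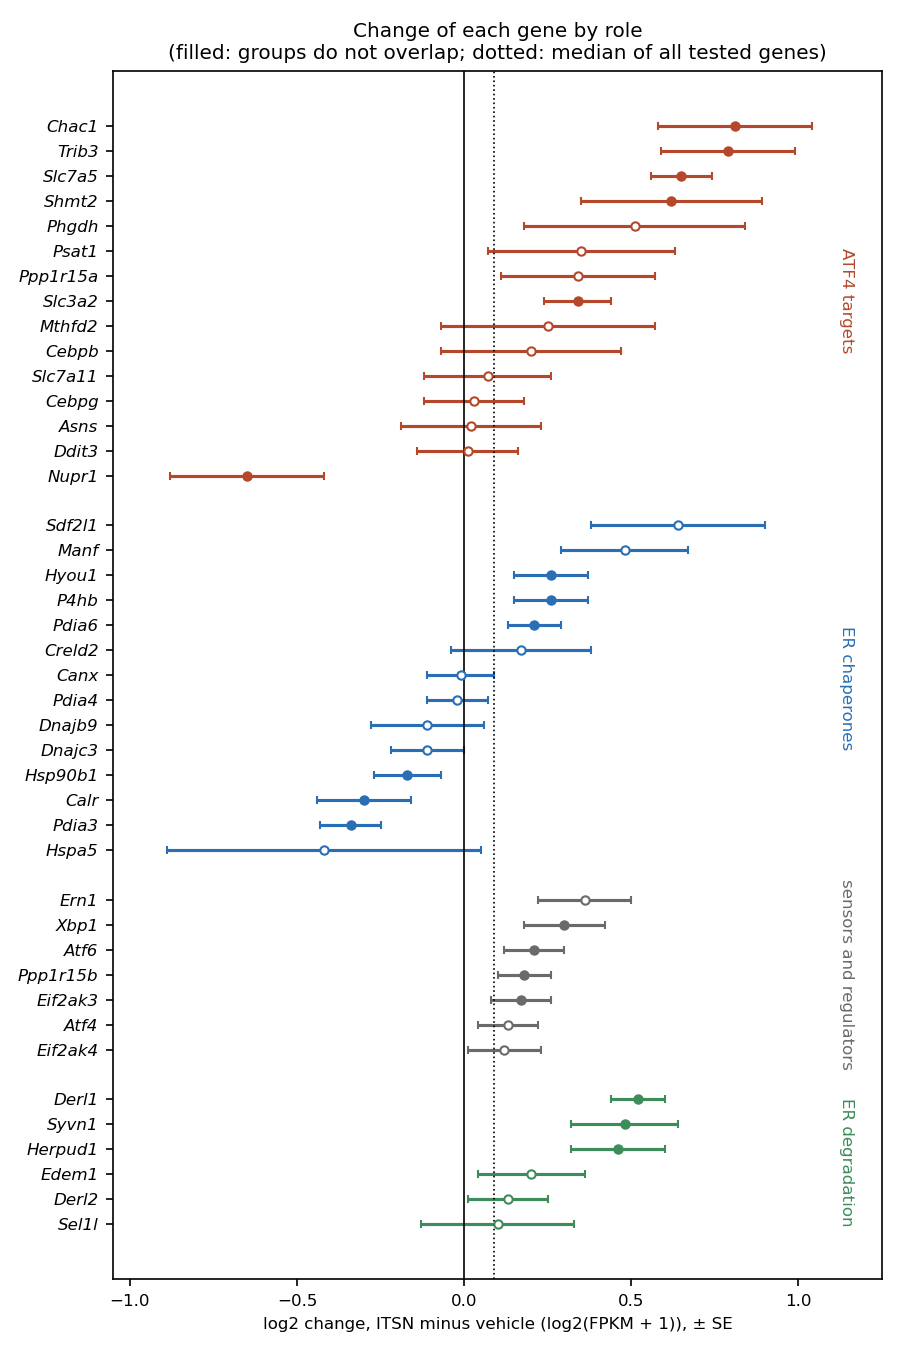
The log2 change of each of the 42 genes, ITSN minus vehicle on the log2(FPKM + 1) scale, is plotted with its SE by role, filled where the groups did not overlap, with a dotted line at the median of all tested genes (0.09). ATF4 targets lie mostly to the right with Nupr1 alone to the left at -0.65, and chaperones spread on both sides from -0.42 for Hspa5 to 0.64 for Sdf2l1.

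The 7 sensors and regulators all had small positive changes, with a median log2 change of 0.18 and a range from 0.12 to 0.36. In limma 0 passed after adjustment and 2 had an unadjusted p below 0.05 (28.6%, against 20.9% of all tested genes), and in 4 each ITSN library was above each vehicle library (57.1%, against 21.8%). With the GC trend removed, 6 of 7 were positive and the median was 0.11.

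Xbp1, whose spliced mRNA encodes the factor downstream of IRE1, stood at 18.8, 16.4 and 15.0 FPKM in the vehicle mice and at 20.4, 23.2 and 18.9 FPKM in the ITSN mice. The lowest ITSN library was barely above the highest vehicle library, and the log2 change was 0.30 ± 0.12 SE with an adjusted p of 0.22 in limma. With the GC trend removed that change was 0.11. Ern1, which encodes IRE1 itself, stood at 11.0, 9.01 and 8.43 FPKM in the vehicle mice and at 12.1, 14.5 and 10.7 FPKM in the ITSN mice, with a change of 0.36 ± 0.14 SE. In both genes ITSN 2 was the highest of the 6 libraries. Gene-level values do not separate spliced from unspliced Xbp1.

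Atf4 stood at 71.3, 66.1 and 62.8 FPKM in the vehicle mice and at 72.5, 76.9 and 70.1 FPKM in the ITSN mice. The groups overlapped at vehicle 1, and the log2 change was 0.13 ± 0.09 SE with an adjusted p of 0.46 in limma, which turned to -0.14 with the GC trend removed. Atf6 stood at 10.5, 12.0 and 12.6 FPKM in the vehicle mice and at 13.9, 13.7 and 13.4 FPKM in the ITSN mice, with a change of 0.21 ± 0.09 SE and no overlap.

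The eIF2α kinases stood at low levels and differed little. Eif2ak3, which encodes PERK, stood at 3.03, 3.41 and 3.00 FPKM in the vehicle mice and at 3.74, 3.64 and 3.65 FPKM in the ITSN mice, a change of 0.17 ± 0.09 SE. Eif2ak4, which encodes GCN2, stood between 4.83 and 6.27 FPKM in the vehicle mice and between 5.99 and 6.35 FPKM in the ITSN mice, a change of 0.12 ± 0.11 SE that was 0.04 without vehicle 1. Ppp1r15b, the constitutive eIF2α phosphatase subunit, stood at 27.2, 29.3 and 28.1 FPKM in the vehicle mice and at 31.6, 33.1 and 31.8 FPKM in the ITSN mice, a change of 0.18 ± 0.08 SE without overlap.

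The degradation genes, which return misfolded proteins to the cytosol for the proteasome, had positive changes in 6 of 6, with a median log2 change of 0.33 that was 0.18 without vehicle 1 and 0.19 with the GC trend removed. In limma 0 passed after adjustment and 3 of the 6 had an unadjusted p below 0.05, all higher, against 20.9% of all tested genes. After trimmed-mean scaling 5 of 6 were positive, with Sel1l at -0.01.

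Derl1 (ENSMUSG00000022365.6, chr15:57869502-57892448, minus strand) encodes derlin-1, a membrane protein of the channel through which misfolded proteins leave the ER. It stood at 20.2, 19.0 and 19.2 FPKM in the vehicle mice and at 28.7, 28.8 and 27.7 FPKM in the ITSN mice. The libraries within each group were nearly equal, and the gap between groups was several times their spread. The means were 19.5 ± 0.626 and 28.4 ± 0.644 FPKM (SD, n = 3 each), a ratio of 1.46, with a log2 change of 0.52 ± 0.08 SE and an adjusted p of 0.068 in limma.

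The change of Derl1 was of similar size in the other settings. Without vehicle 1 its log2 change was 0.55 with an adjusted p of 0.029 in limma, and with the GC trend removed 0.44 with an adjusted p of 0.18. With both steps it was 0.53 with an adjusted p of 0.043, the one stress response gene called in that setting, where 0.760% of all tested genes were called. Its relative Derl2 stood between 5.17 and 6.91 FPKM in the vehicle mice and between 6.55 and 7.19 FPKM in the ITSN mice, with a change of 0.13 ± 0.12 SE that was 0.02 without vehicle 1.

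Herpud1, whose product HERP assembles the degradation complex and whose promoter window held both the C/EBP-ATF element and the shorter ER stress element printed above, stood at 5.84, 7.87 and 8.23 FPKM in the vehicle mice and at 9.26, 10.6 and 11.2 FPKM in the ITSN mice. The groups did not overlap, and the means were 7.31 ± 1.29 and 10.3 ± 0.977 FPKM (SD, n = 3 each). The log2 change was 0.46 ± 0.14 SE with an adjusted p of 0.15 in limma. That change was 0.32 without vehicle 1 and 0.26 with the GC trend removed.

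Syvn1, the ubiquitin ligase HRD1, stood at 2.30, 1.94 and 2.25 FPKM in the vehicle mice and at 2.86, 2.98 and 4.60 FPKM in the ITSN mice, with ITSN 3 well above the rest. Its log2 change was 0.48 ± 0.16 SE with an adjusted p of 0.16 in limma, and 0.17 with the GC trend removed. Mrpl49 overlaps the exons of Syvn1 on the opposite strand. Sel1l, the adaptor of HRD1, stood at 7.36, 13.2 and 8.34 FPKM in the vehicle mice and at 8.54, 12.9 and 9.31 FPKM in the ITSN mice. The second library of each group was high and the rest were low, and the change was 0.10 ± 0.23 SE, or -0.05 without vehicle 1. Edem1, a lectin that hands over misfolded glycoproteins, stood at 11.7, 16.5 and 17.8 FPKM in the vehicle mice and at 17.0, 17.7 and 18.0 FPKM in the ITSN mice, with a change of 0.20 ± 0.16 SE that was 0.03 without vehicle 1.

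Further genes of the same pathways, outside the 43, were read in the same way. For all tested genes, 64.0% of changes were positive, the median was 0.09 and 20.9% had an unadjusted p below 0.05 in limma. Of 29 tested ATF4 targets outside the set, 23 had a positive and 6 a negative change (79.3% positive), with a median log2 change of 0.21. In limma 8 were higher and 0 lower at an unadjusted p below 0.05 (27.6%). Their median was 0.09 without vehicle 1, with 19 positive, and 0.06 with the GC trend removed, with 18 positive. It was 0.10 after trimmed-mean scaling. The medians of all tested genes in these settings were 0.03, 0.00 and -0.01. Positive changes were seen in 6676 of all 12257 tested genes without vehicle 1, and in 6243 of 12234 with the GC trend removed. Eif4ebp1, a repressor of translation, stood at 6.89, 8.29 and 8.49 FPKM in the vehicle mice and at 12.5, 11.7 and 12.9 FPKM in the ITSN mice. Slc6a9, a glycine transporter, stood at 2.36, 2.37 and 2.34 FPKM in the vehicle mice and at 3.71, 4.42 and 3.57 FPKM in the ITSN mice. Sesn2, a leucine sensor that restrains mTORC1, had means of 1.08 ± 0.229 and 2.08 ± 0.160 FPKM (SD, n = 3 each). These 3 had the smallest p of the list, with adjusted p of 0.076, 0.076 and 0.079 in limma, and 0 of the list passed.

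Of 29 other ER chaperones and folding enzymes, 18 had a positive and 11 a negative change (62.1% positive), with a median of 0.12 and, at an unadjusted p below 0.05 in limma, 6 higher and 1 lower (24.1%), close to the shares over all genes. The smallest p belonged to Qsox1, a sulfhydryl oxidase, and to Ganab and Prkcsh, the subunits of glucosidase II, which trims glycans for the calnexin cycle. Ganab stood at 32.0, 36.6 and 37.8 FPKM in the vehicle mice and at 47.3, 43.6 and 47.1 FPKM in the ITSN mice, on the opposite side to Pdia3 and Calr of the same cycle, with an adjusted p of 0.11. Of 24 other degradation genes, 16 were positive and 8 negative (66.7% positive), with a median of 0.13, and 3 were higher and 0 lower at an unadjusted p below 0.05 (12.5%, below the share over all genes). Edem2, a relative of Edem1, was among them at 3.93 ± 0.925 FPKM in the vehicle mice and 5.65 ± 0.469 FPKM in the ITSN mice (SD, n = 3 each), as was Aup1, a further degradation factor.

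Of 36 ER translocation and secretion genes that XBP1 can induce, 23 were positive and 13 negative (63.9%, against 64.0% of all tested genes), with a median log2 change of 0.07, below the 0.09 of all genes. At an unadjusted p below 0.05 in limma 11 were higher and 2 lower (36.1%, against 20.9%). Kdelr1, the receptor that returns escaped chaperones to the ER, stood at 7.01, 6.86 and 7.77 FPKM in the vehicle mice and at 12.5, 10.6 and 9.93 FPKM in the ITSN mice, and Ssr2 and Wfs1 followed it in the order of p. Of 24 eIF2 factors and other stress regulators, 15 were positive and 9 negative (62.5%), with a median of 0.15, and 6 were higher and 0 lower at an unadjusted p below 0.05 (25.0%), again close to the shares over all genes. Gcn1l1, the activator of GCN2, stood at 5.92, 6.20 and 6.89 FPKM in the vehicle mice and at 9.10, 8.87 and 9.67 FPKM in the ITSN mice, with a change of 0.48 ± 0.09 SE and an adjusted p of 0.076. The cell death gene Bbc3 and Tmbim6, an ER membrane protein that restrains IRE1, had the other small p-values of that list. In each of these lists 0 genes passed the adjusted threshold.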

How the data were processed

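RNA sequencing libraries of 6 mice, 3 per group by the treatment label, were compared. The authors deposited FPKM values per gene, named so per the file headers, in a table of 13823 genes and 1 blank line. Per the submitters' processing notes, the genome was mm10. The sources used here do not give the aligner, the quantifier, the annotation or the use of strand. Exons of other genes overlap those of Cebpb, Cebpg, Ddit3, Derl2, Dnajb9, Eif2ak3, Pdia4, Pdia6, Ppp1r15a, Ppp1r15b and Shmt2. The same holds for Hsp90b1, Manf, Pdia3 and Syvn1, as stated with their values. For Cebpg, Hsp90b1, Manf and Pdia4 an overlap lies on the same strand. The larger group mean was never below 0.500 FPKM for a listed gene. The low values gave no whole-read steps (step scores 0.184 to 0.395, against 0.171 to 0.388 with jitter), so depth is unknown.

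From these values, log2(FPKM + 1) was tested two-sided with limma 3.58.1 (R 4.3.3; lmFit, then eBayes with its trend option) for the 12257 genes that reached 1 FPKM in 3 or more libraries. P-values were adjusted by Benjamini-Hochberg over all tested genes, with a threshold of 0.05. The pseudocount understates changes of low genes. The 3 libraries a group limit precision. Group levels are means ± SD over mice. Each log2 change is given ± the moderated SE of limma, which draws on the variance of all tested genes. GC content came from the longest GENCODE M21 transcript, matched for 99.7% of genes. Its trend was removed library by library, from deviations from the gene means, by lowess with a span of 0.3. The test was checked on simulated data with the spread of these libraries. It called 11 of 67 genes given a log2 change of 0.5 (16.4%), 65.7% at 1.0 and 90.9% at 2.0. Changes of the size seen in most stress response genes would thus mostly go uncalled. Motifs were counted in RefSeq windows (GRCm38.p6) with Python 3.11.15, pandas 2.3.3 and numpy 2.4.6.

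The genes, lists and tests were chosen with earlier results of these data known. Every tested gene of the response may be named, and from each further list the 3 genes with the smallest unadjusted p, of which 1 is not reported here. Alternatives were other pseudocounts, filters and scalings, removal of the GC trend, a replicate block, eBayes without a trend, and leaving out each library.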

Additional observations from a re-analysis of the deposited data

How the results depend on the processing

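The contrast of ATF4 targets with chaperones stayed positive in each setting run, from 0.04 (GC trend removed, vehicle 1 left out) to 0.33 (a library left out). Without Hspa5, a setting chosen after seeing the data, it was 0.22. The 42 stress response genes had 0 calls in each setting other than those without vehicle 1, with 0 to 4 over the left-out libraries and 1 with the GC trend removed too. Over all genes the 7 calls became 19 with a 5 FPKM filter, 108 with trimmed-mean scaling, 93 with quantile normalization, 63 when rescaled without mitochondrial genes, 93 without both GC trend and vehicle 1, and 1 to 673 over the left-out libraries. Replicate numbers are shared by the groups, but the labels do not state that same-numbered mice were paired. Deviations of same-numbered libraries correlated at -0.00, -0.14 and 0.24, which cannot settle whether they were. With the replicate block 2 genes were called, and no call among the stress response genes changed.

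The median log2 change of the ATF4 targets was 0.22 with quantile normalization, 0.15 without the GC trend, 0.11 without vehicle 1 as well, and 0.15 to 0.38 over the left-out libraries. That of the chaperones was -0.13 (trimmed mean), -0.06 (quantile), -0.10 (no mitochondrial genes), -0.04 (GC), 0.03 (GC, no vehicle 1) and -0.02 to 0.01 (left-out libraries). That of the sensors was 0.22 (pseudocount 0.1), 0.08 (trimmed mean), 0.13 (quantile), 0.11 (no mitochondrial genes), 0.11 (GC) and 0.16 to 0.22 (left-out libraries). That of the degradation genes was 0.20 (5 FPKM filter), 0.22 (trimmed mean), 0.19 (GC), 0.16 (GC, no vehicle 1) and 0.18 to 0.41 (left-out libraries).

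The sign of the log2 change turned in at least 1 setting for 14 of 42 genes and in none for 28. With trimmed-mean scaling it was -0.09 for Ddit3, -0.09 for Asns, -0.09 for Cebpg, -0.02 for Slc7a11 and -0.01 for Sel1l. With quantile normalization it was -0.11 for Ddit3, -0.01 for Asns, -0.04 for Cebpg, -0.05 for Slc7a11 and 0.01 for Canx. Rescaled without mitochondrial genes it was -0.07 for Ddit3, -0.06 for Asns and -0.05 for Cebpg. With the GC trend removed it was -0.02 for Asns, -0.39 for Cebpb, 0.05 for Canx, -0.08 for Creld2 and -0.14 for Atf4. With vehicle 1 left out as well it was -0.19 for Asns, -0.04 for Cebpb, -0.15 for Phgdh, -0.16 for Mthfd2, 0.18 for Dnajb9, 0.06 for Dnajc3, 0.04 for Canx, -0.14 for Creld2, -0.02 for Atf4 and -0.04 for Sel1l. Over the left-out libraries it ran from -0.13 to 0.15 for Ddit3, -0.21 to 0.18 for Asns, -0.08 to 0.50 for Cebpb, -0.06 to 0.16 for Cebpg, -0.10 to 0.26 for Slc7a11, -0.14 to 0.53 for Mthfd2, -0.22 to 0.06 for Dnajb9, -0.07 to 0.04 for Pdia4, -0.07 to 0.02 for Canx and -0.06 to 0.33 for Sel1l. With the 5 FPKM filter 38 of the 42 genes remained, and Chac1 was not among them. The cause of these shifts was not tested. FPKM keeps no depth, so no counting error could be given for low genes such as Syvn1 and Chac1.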

Other observations

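A small set of genes had the same high and low libraries as Hspa5, high in vehicle 1, vehicle 2 and ITSN 2 and low in the others. They were picked after their values were seen, from genes whose libraries spread at least 2-fold, by Pearson r with Hspa5 over the 6 libraries. Each point is a library, shared by all genes compared. Degs1, a desaturase that makes ceramide in the ER, stood at 50.4, 47.9 and 24.9 FPKM in vehicle and at 28.3, 52.4 and 27.8 FPKM in ITSN (r = 0.980). The zinc finger gene Zfp952 stood at 4.36, 5.00 and 1.79 FPKM in vehicle and at 1.78, 4.57 and 1.79 FPKM in ITSN (r = 0.987), and Zfp961 and Svbp ran alongside (r = 0.971 and 0.936). Among all 12257 tested genes, whatever their spread, 33 had r of at least 0.9. How many would reach that r by chance over 6 libraries was not tested. The 13 other chaperones had r from -0.921 to 0.757, the highest being Dnajc3. Creld2 ran opposite to Hspa5, at 11.7, 14.2 and 18.4 FPKM in vehicle and at 18.1, 12.7 and 19.5 FPKM in ITSN.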
